A study of Oryza sativa with 156 samples.

Results

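The genes described here are 150 identifiers of a rice count table. They stood higher in leaves of drying pots than in leaves of irrigated pots over days 1-4, 5-8 and 9-12 of a moderate drought and days 3-5 of a severe one. This held for the means over those days, and not for every member on each single day. The 150 were chosen by measured values. For each identifier, L is log2(1 + CPM), where CPM stands for counts per mega count of the column total, and D is the mean L of drought libraries minus the mean L of control libraries. D was taken for moderate days 1-4, 5-8 and 9-12 and for severe days 3-5, identifiers with a mean CPM of at least 5 over all libraries of both courses were kept, and the 150 with the largest value of their smallest D were taken. They are 150 of 55986 identifiers in the table and of 12067 past the CPM minimum. In the table, 41413 identifiers had a count in any library, and the 11684 identifiers of chromosomes 10, 11 and 12 were listed at 0 in every library, so genes of those chromosomes could not be chosen.

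Leaves of the indica cultivar IR64 were sampled daily from day 0 to day 12 in 2 courses. In moderate drought the supply of water to the pot ended and the pot drained by its hose, in severe drought the pot was also lifted above the hose so that it drained faster, and each course had its own control plants that stayed irrigated. All plants were grown in calcined clay in a growth chamber, and polyA RNA was sequenced. The libraries form 52 groups of 3 (moderate drought, moderate control, severe drought and severe control on each of the days), 39 libraries in each arm of a course. Whether the 3 replicates of a group are different plants is not stated, so the tests reflect library-to-library spread, which may be technical.

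When soil dries, plants make the hormone abscisic acid, which closes the stomata and switches on genes through transcription factors that bind its response elements. A further pathway, in which DREB factors act, responds to water loss without the hormone. Genes known to rise in drying leaves include those for late embryogenesis abundant proteins and dehydrins, which protect cell structures, for enzymes that make compatible solutes, and for the phosphatases that dampen abscisic acid signalling. Some of these genes respond within hours and subside, while others stay high as long as the tissue is dry. The identifiers of the count table matched no entry of the table of gene names at hand (0 of 55986), so no name, function, coordinate or sequence is given for any of the 150, and leaf markers and lists of abscisic acid genes could not be placed on them.

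Libraries held total counts of 6.42 to 26.2 M (mega counts), with medians of 17.8 M in moderate drought, 18.3 M in moderate control, 15.2 M in severe drought and 12.3 M in severe control. A split between libraries touches the severe course. The mean log2 CPM of LOC_Os01g57960, LOC_Os01g49370 and LOC_Os06g39708, used as markers because earlier results of these data had shown the split, was at least 6.15 in 49 libraries and at most 5.34 in 107. The higher set held all severe drought libraries of days 0-5, all severe control libraries of days 3-12, and 1 moderate drought library of day 0 (replicate 2). Both arms of the severe course were thus in the same set on days 3-5, drought alone was in the higher set on days 0-2, and control alone was in the higher set on days 6-12. On those days library set and drought cannot be told apart. Depth differed between the arms as well. On severe days 1-2 it was 9.79 to 14.2 M in drought and 14.3 to 22.6 M in control. On severe days 6-12 it was 10.8 to 24.2 M in drought and 9.55 to 18.9 M in control. The part of depth in the results was not tested.

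In the 4 comparisons that chose them, the members differed by a median D of 0.96 on moderate days 1-4 (range 0.54 to 3.43), 0.95 on moderate days 5-8 (0.55 to 3.02), 0.77 on moderate days 9-12 (0.54 to 1.92) and 1.09 on severe days 3-5 (0.57 to 4.64). These values are a description and carry no test. The difference was largest on severe days 3-5 for 85 members, on moderate days 5-8 for 28, on moderate days 9-12 for 22 and on moderate days 1-4 for 15. It was smallest on moderate days 9-12 for 77 members, so the end of the moderate course most often set a member's place in the ranking. The smallest D ran from 0.54 to 1.68 with a median of 0.69, and the mean CPM from 5.12 to 2129 with a median of 28.8. The last members inside the threshold were LOC_Os09g36070 and LOC_Os01g65420, both with a smallest D of 0.54, and LOC_Os09g31470 and LOC_Os04g33190 lay just outside it, also with 0.54, so the lower end of the list has no gap.

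All 150 members were among the 19338 genes kept for the tests. In the quasi-likelihood fit of edgeR, with an adjusted p under 0.05 over all genes tested taken as "called", 148 members were called higher on moderate days 1-4, against 21.1% of all genes. On moderate days 5-8 it was 150, against 14.2%, on moderate days 9-12 it was 143, against 12.3%, and on severe days 3-5 it was 140, against 18.1%. Nothing is read from these 4 counts, since the same differences chose the genes.

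**Figure D1:**
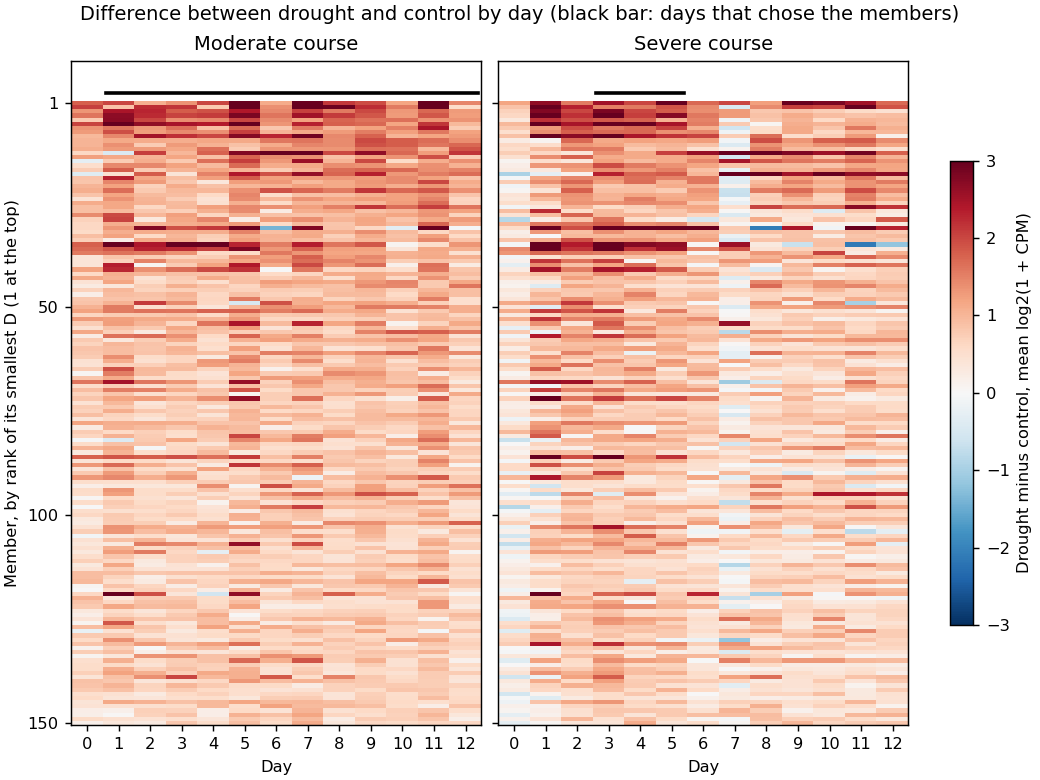
Drought minus control difference of mean log2(1 + CPM) for each of the 150 members (rows, ordered by smallest D) on each day (columns) of the moderate course (left) and severe course (right), on a colour scale cut at -3 and 3. The black bars mark the days that chose the members; outside them, the difference was above 0 for 137 members on severe day 1, for 103 on severe day 7 and for 145 on severe day 12.

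LOC_Os03g30420 headed the ranking. It had a lowest, median and highest CPM of 3.83, 17.3 and 47.8 in moderate drought on days 1-4, against 0.741, 5.56 and 9.73 in control (12 libraries each). On moderate days 9-12 the values were 11.4, 24.1 and 51.3 CPM in drought, against 0.405, 6.19 and 18.6 CPM in control. On severe days 3-5 they were 8.54, 19.8 and 39.9 CPM in drought, against 0.00, 1.98 and 7.97 CPM in control (9 libraries each), so the arms were apart on those severe days and overlapped in the moderate stretches given here. LOC_Os04g58710, the next in rank, spread far more widely, with 26.5, 128.5 and 1416 CPM in moderate drought on days 5-8, against 5.32, 15.7 and 237.8 CPM in control.

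The drought minus control differences of severe days 1-2 and severe days 6-12 were not used to rank the members, although these libraries counted towards the mean CPM minimum. These stretches ask whether the genes were already high at the start of severe drying and stayed high to its end. On severe days 1-2, 121 of 150 members rose and none fell, and 149 had a fold change above 0, against 53.7% of all genes. The share of all 19338 genes that rose was 19.2%, or 3720. The median log2 fold change, drought over control, was 0.95 over the members and 0.04 over all genes. LOC_Os07g11739, singled out after its values were seen, was the member below 0, with a log2 fold change of -0.04 (SE 0.12, adjusted p = 0.83 by edgeR).

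On severe days 6-12, 134 of 150 members rose and none fell, against 24.8% of all genes that rose. The median log2 fold change was 0.69 over the members and -0.01 over all genes, and 148 members were above 0, against 48.3% of all genes. Changes of at least 2-fold were called for 68 members on days 1-2, against 4.06% of all genes, and for 32 on days 6-12, against 1.3%. Every drought library stood above every control library for 62 members on days 1-2, against 5.21% of all genes. On days 6-12, with 21 libraries in each arm, this held for 0 members, against 0.0362% of all genes.

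The drought libraries were in the higher marker set on days 1-2 and in the lower one on days 6-12. Set against the severe controls of days 0-2, which are in the same set but younger, the drought libraries of days 6-12 had 130 members called higher with a median log2 fold change of 0.97, where 25.0% of all genes were called. Set against the severe controls of days 6-12, in the same set but older, the drought libraries of days 1-2 had 107 called higher with a median of 0.71, where 14.7% of all genes were called. The controls of the members were not level over the severe course: on days 6-12 minus days 0-2, 60 members were higher, against 17.0% of all genes, and 12 were lower, against 16.7%, with a median log2 difference of 0.27. The median change was thus larger on days 1-2 with day-matched controls and larger on days 6-12 with same-set controls. The change of the controls coincides with their change of marker set, and its part in the results was not tested.

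Of the 150 members, 106 were called higher in both severe stretches, against 3.98% of all genes tested. Another 28 were called on days 6-12 and not on days 1-2, 15 on days 1-2 and not on days 6-12, and 1, LOC_Os05g33570, in neither. Over all genes 24.8% were called higher on days 6-12 and 19.2% on days 1-2, with the 3.98% in both. Calls in 1 stretch alone were thus common over all genes, and no early or late group is read from the 28 and 15. The fold change was larger on days 1-2 for 98 members. The test of the difference itself called 45 members lower on days 6-12 than on days 1-2, against 22.8% of all genes, and 8 higher, against 20.5%, with a median difference of -0.31 on the log2 scale. The marker sets of the arms are reversed between the stretches, so this difference and the set cannot be told apart.

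**Figure D2:**
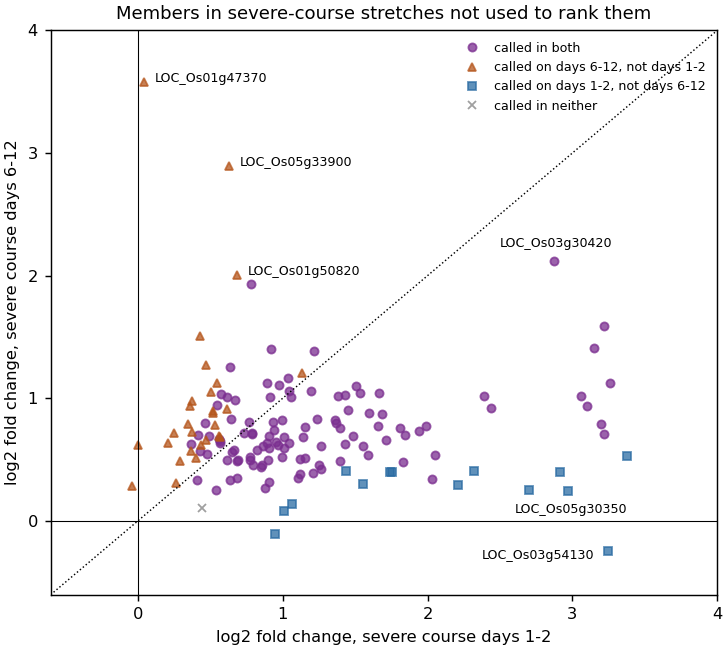
log2 fold change (drought over control) of each member on severe days 1-2 (x axis) and days 6-12 (y axis), with symbols for the stretches in which it was called and a dotted line of equal change. Of the 150 members, 98 had the larger change on days 1-2. LOC_Os05g11320 (4.27 and 1.11) is 1 of these and lies beyond the right edge of the plot. LOC_Os01g47370 (0.05 and 3.58) and LOC_Os03g54130 (3.24 and -0.25) lie farthest from the line on either side.

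LOC_Os01g47370 had the largest change of any member on severe days 6-12. Its lowest, median and highest levels were 1.64, 28.9 and 144 CPM in drought, against 0.413, 3.28 and 6.85 CPM in control (21 libraries each; log2 fold change 3.58, SE 0.33, adjusted p = 1.6e-16 by edgeR). On days 1-2 they were 1.03, 3.00 and 7.88 CPM in drought, against 2.23, 3.71 and 5.31 CPM in control (6 libraries each; log2 fold change 0.05, SE 0.66, adjusted p = 0.97). The arms overlapped fully on days 1-2, and on days 6-12 most drought libraries lay above the highest control. On day 6 the 3 drought libraries had 3.30, 78.2 and 1.64 CPM, so the change was in 1 of the 3 libraries of that day.

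LOC_Os05g33900 followed a like course. It had 2.84, 9.16 and 16.3 CPM (lowest, median and highest) in drought on severe days 1-2, against 1.79, 5.91 and 9.75 CPM in control, with a log2 fold change of 0.63 (SE 0.55, adjusted p = 0.38 by edgeR). On days 6-12 it had 20.6, 66.4 and 125.5 CPM in drought, against 2.63, 8.03 and 23.0 CPM in control, with a log2 fold change of 2.89 (SE 0.29, adjusted p = 3.2e-15). Its lowest drought library on days 6-12 stood just below its highest control library. LOC_Os01g50820 had 2.71, 20.7 and 39.9 CPM in drought on days 6-12, against 1.98, 4.98 and 8.61 CPM in control (log2 fold change 2.00, SE 0.22, adjusted p = 1.7e-13).

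These 3 genes and LOC_Os04g48880 are among the 8 members whose fold change was called larger on days 6-12 than on days 1-2. The differences of the fold changes were 3.53 (SE 0.74, adjusted p = 4.1e-05 by edgeR) for LOC_Os01g47370, 2.26 for LOC_Os05g33900, 1.32 for LOC_Os01g50820 and 1.15 for LOC_Os04g48880. LOC_Os04g48880 was already called on days 1-2 (log2 fold change 0.78, adjusted p = 0.014), but with replicate 1 left out the adjusted p was 0.070, and with replicate 3 left out it was 0.061. Against controls of the same marker set, the log2 fold change of LOC_Os01g47370 was 3.19 for drought on days 6-12 and 0.27 for drought on days 1-2. For LOC_Os05g33900 the same comparisons gave 3.29 and 0.01. For LOC_Os01g50820 they gave 3.24 and -0.69, and for LOC_Os04g48880 they gave 1.38 and 1.28, which lay close together. In each of these genes the later stretch had the larger value with either set of controls, which did not hold for all members named here.

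LOC_Os03g54130 stood at the other end. On severe days 1-2 it had 53.9, 115.6 and 191.4 CPM (lowest, median and highest) in drought, against 1.75, 12.0 and 29.8 CPM in control, with no overlap (log2 fold change 3.24, SE 0.56, adjusted p = 1.4e-06 by edgeR). On days 6-12 it had 12.4, 42.2 and 110.5 CPM in drought, against 2.07, 67.4 and 171.0 CPM in control (log2 fold change -0.25, SE 0.27, adjusted p = 0.47). The drought level was thus lower in the later stretch and the control level higher. On day 11 it was called lower, the 1 such call over severe days 1, 2 and 6-12, with 38.2, 18.4 and 42.2 CPM in drought, against 154.1, 101.5 and 171.0 CPM in control (log2 fold change -2.11). Against the severe controls of days 0-2, in the same marker set, the drought libraries of days 6-12 were higher (log2 fold change 2.14, adjusted p = 6.3e-06), so its direction on those days turns with the controls used. In the moderate course, where both arms were in the lower set, its median level on days 9-12 was 74.3 CPM in drought and 41.0 CPM in control. Those moderate days helped to choose the members, so a higher drought level there was built in and says nothing on the severe direction.

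**Figure D3:**
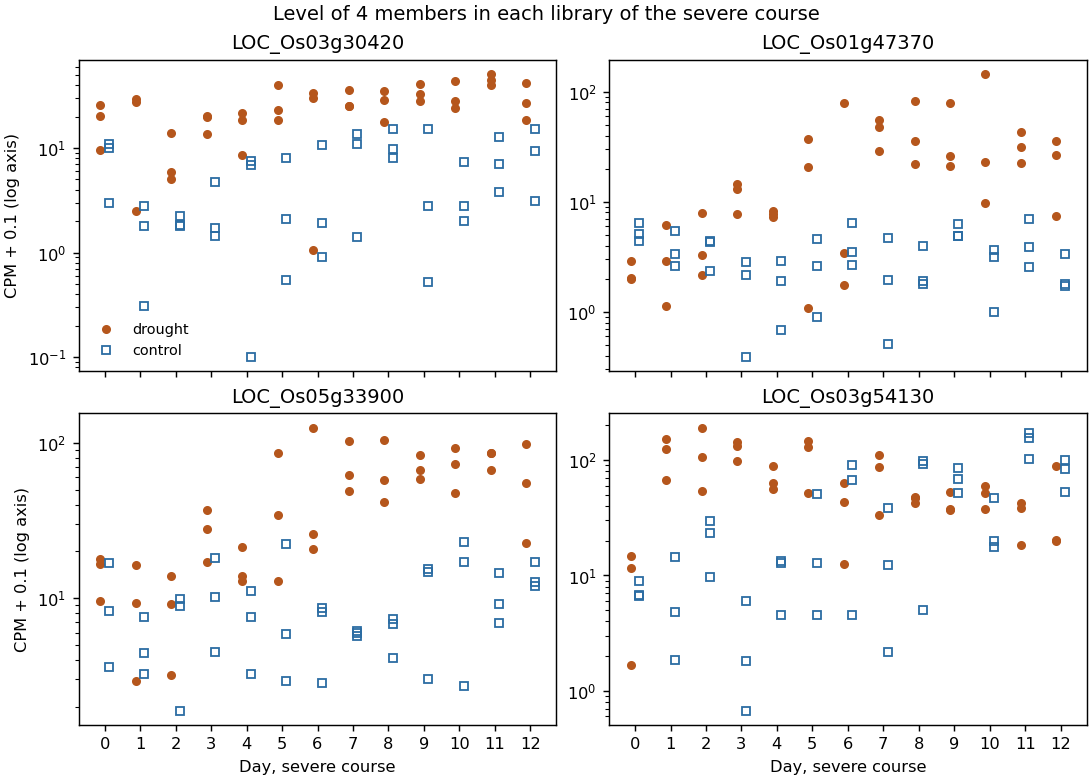
Level of 4 members in every severe library (CPM + 0.1, log axis) by day, with filled circles for drought and open squares for control, 3 libraries of each a day. LOC_Os03g30420 was called higher on days 1-2 and 6-12, LOC_Os01g47370 and LOC_Os05g33900 on days 6-12, and LOC_Os03g54130 on days 1-2, and the control squares of LOC_Os03g54130 reach 171.0 CPM on day 11.

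Members other than LOC_Os03g54130 also had small changes on severe days 6-12. LOC_Os09g20930 had 54.8, 92.6 and 172.3 CPM (lowest, median and highest) in drought on days 1-2, against 33.2, 54.6 and 60.4 CPM in control, and was called (log2 fold change 0.95, SE 0.22, adjusted p = 3.3e-04 by edgeR). On days 6-12 its medians were 47.8 CPM in drought and 48.2 CPM in control, with a log2 fold change of -0.11 (SE 0.12). LOC_Os01g74450, LOC_Os08g06110 and LOC_Os05g30350 were called on days 1-2 with log2 fold changes of 1.01, 1.07 and 2.97, and had 0.08, 0.14 and 0.24 on days 6-12, none of them called. LOC_Os05g33570 had 0.44 (SE 0.32) and 0.11 (SE 0.17), with overlapping arms in both stretches. For LOC_Os08g06110 and LOC_Os05g30350 the drought libraries of days 6-12 were higher than the same-set controls (log2 fold changes 0.74 and 1.25, adjusted p = 0.0016 and 0.0071).

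The 10 members with the largest smallest D were all called in both stretches. LOC_Os03g30420 had 2.42, 9.84 and 29.2 CPM (lowest, median and highest) in drought on severe days 1-2, against 0.209, 1.71 and 2.66 CPM in control. On days 6-12 it had 0.961, 29.7 and 50.6 CPM in drought, against 0.422, 7.30 and 15.2 CPM in control. The log2 fold changes were 2.87 (SE 0.63, adjusted p = 1.2e-04 by edgeR) on days 1-2 and 2.12 (SE 0.29, adjusted p = 7.2e-10) on days 6-12. The difference between them was -0.75 and was not called (SE 0.69, adjusted p = 0.39). For days 1-2 against the same-set, older controls its log2 fold change was 0.85 (adjusted p = 0.12), and that of LOC_Os04g58710 was 0.72 (adjusted p = 0.30), so these 2 calls ended there.

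LOC_Os04g58710 had log2 fold changes of 3.22 on days 1-2 and 1.59 on days 6-12. In 7 of the other leading members the change was called smaller on days 6-12 than on days 1-2. The estimated drop was above 1 on the log2 scale in 6 of them, though the test was against a drop of 0. These 6 were LOC_Os03g14910 (3.10 and 0.94), LOC_Os03g14915 (3.26 and 1.13), LOC_Os05g50930 (2.44 and 0.93), LOC_Os06g21380 (3.20 and 0.79), LOC_Os03g38730 (1.81 and 0.76) and LOC_Os01g36720 (3.06 and 1.02). LOC_Os04g49350, with 1.66 and 0.77, was called smaller as well (difference -0.89, SE 0.34, adjusted p = 0.028 by edgeR). Against controls of the same marker set, 4 of these 6 had the smaller value on days 1-2 instead: LOC_Os03g14910 (1.39 and 2.38), LOC_Os03g14915 (1.59 and 2.47), LOC_Os06g21380 (1.72 and 2.02) and LOC_Os01g36720 (1.42 and 2.24). LOC_Os04g49350 turned as well (1.09 and 1.29), while LOC_Os05g50930 (2.05 and 1.10) and LOC_Os03g38730 (1.78 and 0.63) kept the larger value on days 1-2. Which stretch had the larger change in 5 of these 7 genes thus turned with the controls used, and stretch and library set cannot be told apart. LOC_Os01g08460 had the larger value later, with 0.92 and 1.40, but the difference was not called (adjusted p = 0.22 by edgeR). The call of LOC_Os06g21380 on days 6-12 ended without replicate 2 (log2 fold change 0.56, adjusted p = 0.15).

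The 4 members with the highest mean CPM were called higher in both stretches. LOC_Os07g29410 had 2056, 2528 and 3558 CPM (lowest, median and highest) in drought on severe days 1-2, against 989.0, 1595 and 2009 CPM in control, with no overlap (log2 fold change 0.85, SE 0.16, adjusted p = 1e-05 by edgeR). On days 6-12 it had 1466, 2373 and 2988 CPM in drought, against 964.2, 1617 and 2713 CPM in control, with overlap (log2 fold change 0.44, SE 0.09, adjusted p = 7.9e-06). LOC_Os01g51410 had log2 fold changes of 1.25 and 0.46, LOC_Os04g37619 of 1.15 and 0.77, and LOC_Os09g26420 of 0.68 and 0.35. The call of LOC_Os01g51410 on days 6-12 ended without replicate 2 (adjusted p = 0.15). At the threshold of the ranking, LOC_Os09g36070 was called in both stretches (0.78 and 0.49), and LOC_Os01g65420 on days 6-12 (0.25 and 0.72).

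Day by day, with 3 libraries in each arm, 91 members were called higher on severe day 1, against 19.1% of all genes, and 89 on day 2, against 3.53%. Day 6 had 28, against 1.33%, day 7 had 20, against 1.97%, and day 8 had 52, against 5.54%. Day 9 had 46, against 5.42%, day 10 had 54, against 3.87%, day 11 had 63, against 9.46%, and day 12 had 45, against 4.01%. Day 7 stood out by its size as well as its count: the median log2 fold change was 0.31 on day 7 and lay between 0.67 and 1.03 on severe days 1, 2, 6 and 8 to 12. The count of day 6 turned on single libraries. It was 85 without the replicate 3 libraries of that day and 90 without replicate 3 in every group, and the genes called higher in all were then 2113 and 1936, against 257 with every library. Without replicate 1 it was 0, with 4 genes called higher in all, and without replicate 2 it was 0, with 15.

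Over these 9 days, 84 members had a fold change above 0 on each, against 4.95% of all genes, and 37 were called on at least 5, against 1.28% of all genes. The 37 became 19 with no filter on low counts and 2 to 20 with 1 replicate number left out. The share of all genes in those fits is not given here, so the fall is not read as a trait of the members. LOC_Os06g42850 and LOC_Os09g28310, named after their values were seen, were called on all 9 days. Against the same-set, older controls, however, the log2 fold change of LOC_Os06g42850 on days 1-2 was 0.12 (adjusted p = 0.35 by edgeR), and that of LOC_Os09g28310 was 0.29 (adjusted p = 0.023). LOC_Os09g28310 had 65.4, 77.2 and 97.6 CPM (lowest, median and highest) in drought on days 1-2, against 39.6, 49.1 and 54.6 CPM in control, and 91.2, 116.9 and 142.2 CPM in drought on days 6-12, against 47.7, 67.2 and 99.2 CPM in control. Its daily log2 fold change stayed between 0.66 and 1.01. LOC_Os06g42850 had 46.4, 59.4 and 73.7 CPM in drought on days 6-12, against 31.5, 37.0 and 49.3 CPM in control, and its daily values stayed between 0.50 and 0.72. On days 1-2 both changed by less than the median member. LOC_Os04g45000, LOC_Os01g12920 and LOC_Os05g13520 were called on 8 of the 9 days, and 5 members were called on none.

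The members' mean level per library, the mean of log2(1 + CPM) over the 150, sums up how far the arms lay apart. On severe days 1-2 its lowest, median and highest values were 4.90, 5.19 and 5.67 in drought, against 3.90, 4.18 and 4.40 in control. On severe days 6-12 they were 4.67, 5.30 and 5.76 in drought, against 4.04, 4.49 and 5.14 in control. Taken day by day, every drought library lay above every control library on moderate days 1-12 and severe days 3-5, where the choice of the members builds this in. On the days that entered no D, the same held on day 0 of both courses and on severe days 1, 2 and 7-12, but not on severe day 6. There the drought libraries had 5.41, 5.57 and 4.67 and the control libraries 4.04, 4.38 and 4.89, and replicate 3 was the lowest of the drought libraries and the highest of the controls. By the 3 set markers the replicate 3 libraries of that day matched the set of their labelled arm. Over the genes tested, however, the deviations of these 2 libraries from their group means had a Pearson correlation of -0.73, the lowest of the 78 same-numbered pairs of both courses. Whether the 2 labels stand on the right libraries was not tested.

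**Figure D4:**
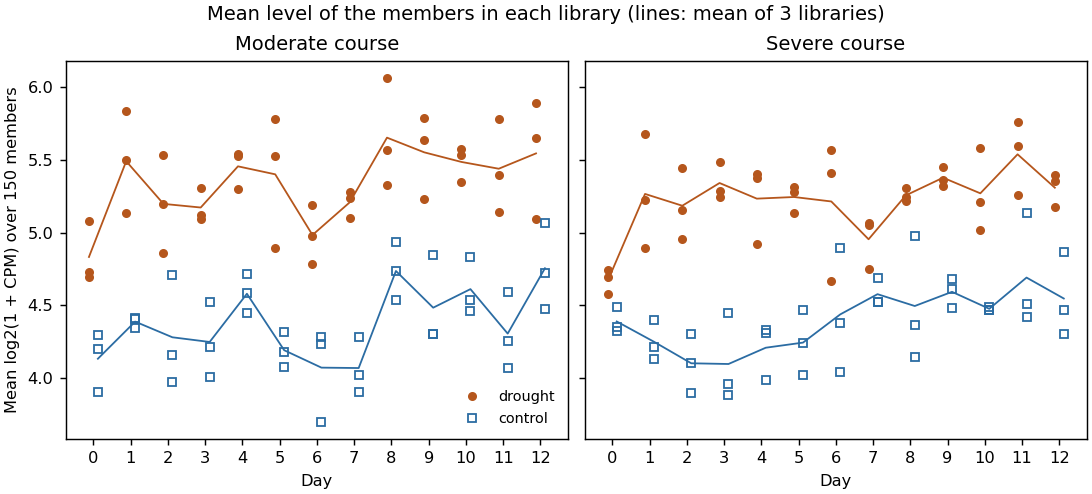
Mean log2(1 + CPM) over the 150 members in every library by day, with filled circles for drought, open squares for control and lines through the means of 3 libraries, in the moderate course (left) and severe course (right). The days that chose the members are moderate days 1-12 and severe days 3-5; outside them the arms are apart except on severe day 6, also on day 0, where the moderate drought arm lay at 4.69 to 5.08 and its control at 3.90 to 4.30.

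The libraries of a group differed in the members' mean level. Replicate 1 had the highest mean level of its group in 36 of 52 groups, replicate 2 in 7 and replicate 3 in 9. The members varied together within groups: over 11175 pairs of members, the median Pearson correlation of their deviations from the group means was 0.31 over all libraries of both courses, and 87.1% of pairs were above 0. Over all pairs of the genes tested the median was 0.00 and 49.8% were above 0, and over the 12067 past the CPM minimum these values were 0.00 and 50.1%. The pairs share libraries and depth, and the libraries include those that chose the members, so this is a description.

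Change within the later severe course was tested as days 9-12 minus days 6-8, where each arm kept its marker set. No member was called by edgeR, where 0.0103% of all genes were, and 31 members, or 20.7%, had an unadjusted p under 0.05, against 9.79% of all genes. DESeq2 also called 0. The median difference was 0.19 on the log2 scale, and 0.02 without the replicate 3 libraries of day 6. Without those libraries 18 of 150 members had an unadjusted p under 0.05 by edgeR, where 2030 of 19715 genes in all did. In the moderate course, whose values chose the members, the median log2 fold change on days 9-12 was 0.90, and on severe days 9-12 it was 0.74, with the severe value the larger for 37 members. These 2 medians are given side by side and were not compared by a test.

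Day 0 is labelled as the start of each treatment, and its libraries counted towards the mean CPM minimum but not towards any D. The members were nevertheless apart between the arms of the moderate course on that day: 145 of 150 were above 0, against 51.7% of all genes. Their median log2 fold change was 0.72, while the median of all genes was 0.01. On moderate day 0, 31 members were called higher and 0 lower, against 1.68% of all genes called higher, and 82 members, or 54.7%, had an unadjusted p under 0.05, against 19.7% of all genes. The count was 10 without replicate 1, 0 without replicate 2, 0 without replicate 3 and 9 without the 1 drought library in the higher marker set. Over all genes the number called higher fell alike, to 76, 0, 5 and 86 in these fits, against 325 with every library. The members' median log2 fold change was less affected, with medians from 0.62 to 0.81 over all the alternatives tried. In these genes the moderate arms were apart on the day labelled 0, and how much of the later difference was there from the start was not tested.

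On severe day 0 no member was called by edgeR, against 0.858% of all genes called higher, with 1 called by DESeq2. At an unadjusted p under 0.05 there were 22 members, or 14.7%, against 15.7% of all genes, so that share is no higher than the background. Of the members 111, or 74.0%, were above 0, against 51.7% of all genes. The median log2 fold change was 0.30 over the members and 0.01 over all genes. The severe minus moderate difference of the day 0 fold changes had a median of -0.48 over the members and 0.03 over all genes, and was above 0 for 19 members, or 12.7%, against 53.1% of all genes. It was called in 1 member, lower in the severe course, against 0.0827% of all genes. On day 0 all 3 severe drought libraries were in the higher marker set and all 3 severe controls in the lower one, while 5 of the 6 moderate libraries were in the lower set, so course and library set cannot be told apart in this difference. That member, LOC_Os01g47270, had 14.6, 12.6 and 14.6 CPM in severe drought on day 0, against 29.8, 20.4 and 14.6 CPM in severe control. It had 21.9, 15.8 and 14.7 CPM in moderate drought on day 0, against 15.7, 11.0 and 9.54 CPM in moderate control.

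LOC_Os03g54130 had the largest day 0 value of any member in the moderate course, and it rested on 1 library. The 3 drought libraries had 114.8, 8.54 and 10.6 CPM, against 8.79, 10.9 and 1.60 CPM in control (log2 fold change 2.63, SE 0.79, adjusted p = 0.035 by edgeR). Without replicate 1 the log2 fold change was 0.59 (adjusted p = 0.84). LOC_Os07g29410, by contrast, had 2988, 2401 and 2385 CPM in drought, against 1896, 1579 and 1550 CPM in control, with no overlap, and was not called (log2 fold change 0.63, adjusted p = 0.087). LOC_Os01g47370 and LOC_Os05g33900, the members with the largest changes on severe days 6-12, were not called on moderate day 0 (log2 fold changes -0.52 and 0.70, adjusted p = 0.84 and 0.69).

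**Figure D5:**
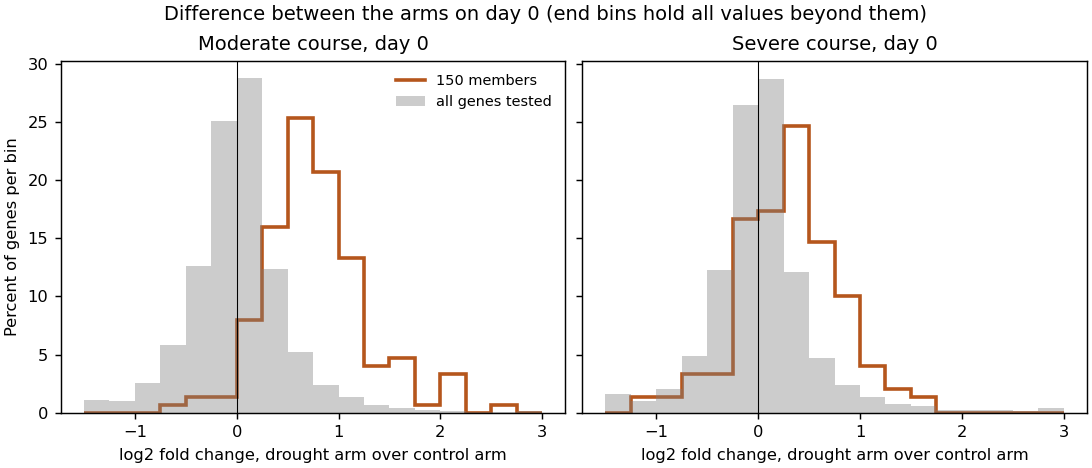
Distribution of the log2 fold change between the drought and control arms on day 0 of the moderate course (left) and severe course (right), as the percent of genes per bin, for the 150 members (line) and all 19338 genes tested (grey). The members' median is 0.72 in the moderate course and 0.30 in the severe course, and that of all genes 0.01 in both.

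The identifiers carry a chromosome number, from 1 to 9 among the genes tested, since those of chromosomes 10 to 12 held no count. Of the 150 members, 33 or 22.0% carry chromosome 1, where 16.7% of the tested genes lie, and 30 or 20.0% carry chromosome 3, with 15.2% of the genes. Chromosome 2 holds 7 members or 4.67%, with 14.0% of the genes. Members could come only from the 12067 identifiers past the CPM minimum, whose shares by chromosome are not given here. The other chromosomes are left out, and no departure was tested. In 5 cases 2 members were next to each other in the order of the identifiers, singled out for that position. Their deviations from the group means had a Pearson correlation over all libraries of 0.92 for LOC_Os03g14910 and LOC_Os03g14915, of 0.86 for LOC_Os03g18550 and LOC_Os03g18560, of 0.79 for LOC_Os05g44560 and LOC_Os05g44570, and of 0.63 both for LOC_Os01g62760 and LOC_Os01g62770 and for LOC_Os03g18540 and LOC_Os03g18550, where the median over all pairs of members was 0.31. Neighbours could share reads, since the treatment of overlapping genes in the counting is not given in the sources used here, so such pairs may not be separate observations.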

How the data were processed

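The deposited table holds raw read counts per gene, made by the authors from polyA libraries of a strand-preserving kit. Per the submitters' processing notes, STAR, featureCounts 2.0.0 and the build IRGSP-1.0 were used. How strand and shared reads were handled is not given in the sources used here. Columns were matched to samples by name, and 4 columns of no sample were not used. Total counts were 6.42 to 26.2 M (mega counts) per library.

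Members were chosen on CPM from column totals, with the mean CPM minimum taken over all libraries. Tests used edgeR 4.0.16 in R 4.3.3: filterByExpr (minimum count 10, minimum total 15; 19338 genes), TMM, and a quasi-likelihood model with 52 groups of course, arm and day (104 residual degrees of freedom), with Benjamini-Hochberg adjustment over all genes tested and a threshold of 0.05. Contrasts were means over days of drought minus control. The SE of a log2 fold change is its size divided by the root of its F statistic. CPM of single genes is TMM-scaled; it is not per length, so levels are not compared between genes. The methods were tested on simulated data.

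The members, lists, marker genes and comparisons were chosen with earlier results of these data known. Genes named are the 10 with the largest smallest D, the 6 with the largest and the 6 with the smallest change on severe days 6-12, the 4 with the highest mean CPM and those at the threshold; a further part of the rule, for genes called in days 9-12 minus days 6-8, named none. Other genes named were chosen after their values were seen. The counts day by day and of day 6 under alternatives, the contrast of severe days 6-12 with days 1-2, that of day 0 between courses and that of the severe controls were added after seeing the data. Alternatives were DESeq2 1.42.0 and its size factors, no filter, 1 course only, a replicate block, leaving out replicates or single libraries, and same-set controls. Gene lists and cell type markers matched 0 identifiers and were not used.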

Additional observations from a re-analysis of the deposited data

Results flagged for a closer look

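LOC_Os01g47270 differed between the courses on day 0. The drought over control log2 fold change was -0.64 in the severe course and 0.53 in the moderate course, and the severe minus moderate difference was -1.17 (SE 0.27, adjusted p = 0.036 by edgeR over all genes tested). The arms of the severe course were in different marker sets on day 0 and those of the moderate course, except 1 drought library, in the same one, so course and set cannot be told apart. It was the 1 member called in that comparison, where 16 genes in all were called lower.

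The drought minus control difference was lower on severe days 6-12 than on days 1-2 for 45 members, against 22.8% of all genes, and higher for 8, against 20.5%, by the test of the difference. The marker set of the arms is reversed between these stretches and cannot be told apart from the days. With same-set controls the median change of the members was 0.97 on days 6-12 and 0.71 on days 1-2, the reverse order.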

How the results depend on the processing

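The counts of members called higher on severe days 6-12 (134) and days 1-2 (121) stayed within 1.5 times under every alternative run, at 119 to 141 and 99 to 120, same-set controls included (130 and 107). Over all genes the same fits called 3316 to 5022 and 2305 to 3694 higher. The 31 members of moderate day 0 became 17 with no filter, 9 without the replicate 2 drought library, and 0 to 10 when a replicate number was left out. Over all genes the 325 called higher became 141, 86 and 0 to 76 in these fits. On severe day 0 (0 members) the replicate block gave 2 and DESeq2 gave 1, and for severe days 9-12 minus days 6-8 (0 members) the block gave 1. Over all genes 119, 126 and 11 were called higher there. The 37 members called on at least 5 of the 9 days became 19 with no filter and 2 to 20 with a replicate number left out. For this count the share of all genes under the alternatives is not given here. Day 6 had 28 members, with 12 under no filter, 17 on the severe course only, 85 without its replicate 3 libraries and 0 to 90 with a replicate number left out. Over all genes the 257 called higher became 91, 85, 2113 and 4 to 1936 in these fits. The ranking shared 122 to 142 of 150 members with the rule under another scaling, offset, CPM minimum or left-out replicate. LOC_Os03g54130 on severe days 6-12 turned to a log2 fold change of 2.14 with same-set controls. Of 999 values of named genes under alternatives, 928 kept their side of the threshold, 62 lost the call, 8 gained it and 1, that of LOC_Os03g54130, reversed. The cause was not tested. The labels do not say that a replicate number marks shared plants or batches. Over the genes tested, the correlation of same-numbered deviations in 78 pairs ran from -0.73 to 0.40 with a median of -0.01, and 23 correlated best with their own number, although replicate 1 had the highest mean level of the members in 36 of 52 groups. With the replicate block, 136 members were called on severe days 6-12, 119 on days 1-2, 40 on moderate day 0, and 48 on at least 5 of the 9 days. Over all genes the block called 4764 higher on severe days 6-12, 3479 on days 1-2 and 342 on moderate day 0. The median depth was lowest in severe controls (12.3 M), and the library of least depth (6.42 M) was in severe drought. On severe days 1-2, however, the controls were the deeper arm, at 14.3 M or more against at most 14.2 M in drought.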
